A study of Homo sapiens with 7 samples.

Results

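Heat shock proteins are chaperones, proteins that hold unfolded chains and help them reach or regain their fold. HSP70 proteins bind short hydrophobic stretches in a cycle driven by ATP, which HSP40 proteins (DNAJ) start and HSP110 proteins reset by exchanging the nucleotide, while HSP90 dimers act later on kinases, receptors and other clients. Heat and other proteotoxic stress induce the HSP70, HSP40, HSP110 and HSP90α genes through the transcription factor HSF1. Other chaperones, such as HSC70 and HSP90β, are made constitutively, and the endoplasmic reticulum (ER) and the mitochondria have their own.

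The 10 chaperone genes described here were chosen by name, out of 16157 genes with a row in any of the 3 deposited count tables. They are 5 stress-inducible cytosolic genes (HSPA1A, HSPA1B, DNAJB1, HSPH1 and HSP90AA1), 2 constitutive cytosolic genes (HSPA8 and HSP90AB1), HSPA5 of the ER, and HSPD1 and HSPE1 of the mitochondria. Of these, 9 had a sense row, that is, a cleavage and polyadenylation site (PAS) on the gene's own strand. HSPA8, the gene of the constitutive HSC70, had none in any table.

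The counts are from 3′READS of poly(A)-selected total RNA of HEK293, an established human embryonic kidney line. In batch 1, cells had received a control siRNA (siCtrl) or siRNAs that knock down (KD) the nuclear poly(A) polymerases Star-PAP (gene TUT1, siStarPAP), PAPα (PAPOLA, siPAPa) or PAPγ (PAPOLG, siPAPg), with 1 library each. A further library had PAPα and PAPγ knocked down at once (siPAPag). Batch 2 repeated siCtrl and siStarPAP, again with 1 library each, by the 3′READS+ protocol. The labels name no batch for siPAPag, which stands in a table of its own beside the siCtrl counts of batch 1 (identical at 33682 of 33799 shared PASs). It is grouped with batch 1 below for that reason alone, so a batch difference between siPAPag and siCtrl cannot be told apart from the KD. The labels name no heat shock or other stress treatment for any library.

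A 3′READS read marks the last base of an RNA before its poly(A) tail, and each RNA gives at most 1 such end, so that levels need no scaling by gene length. Levels are given as RPM, the reads of a gene per 1000000 PASS reads (reads with untemplated Ts from the tail) of its library. The tables held between 2347192 and 16191098 sense reads per library, and the 9 genes took 0.208% to 0.538% of them. Intervals are 95% intervals for counting error only, since the reads carry no molecular identifiers and each condition had 1 library per batch. In bulk RNA, fewer cells that express a gene and less RNA of it per cell cannot be told apart. Reads at TUT1 fell from 83 in siCtrl to 2 in siStarPAP of batch 1, and reads at PAPOLA from 71 to 12 in siPAPa and 8 in siPAPag. TUT1 had 6 and 4 reads in batch 2, and PAPOLG had 5 reads in siCtrl against 15 in siPAPg, too few to check those labels.

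The tables listed 35 sense PASs of the 9 genes, of which 20 lay in annotated 3′UTRs. The poly(A) signal is the hexamer, most often AATAAA on the DNA strand, that the cleavage machinery reads shortly before the cut. AATAAA stood in the 40 bases ending at the PAS for 46.3% of 51882 sense PASs of batch 1, another 16.1% had ATTAAA, and 17.5% had none of 12 signal variants. The ends that carry the results below are printed here, because the use of these PASs is compared below. All are 30 bases on the strand of the RNA, 5′ to 3′, of GRCh37 (the hg19 build of the tables), ending at the PAS unless stated, with the signal in capitals.
HSPA1A, chr6:31785690-31785719, plus strand, the main PAS: acttcaaagtaAATAAActttaaaattcaa
HSPA1B, chr6:31797878-31797907, plus strand, proximal PAS: ccctttaAATGAAtcaacactgccaccttc
HSPA1B, chr6:31798002-31798031, plus strand, distal PAS: ttaaatatgaaaAATAAAatgttaaacttt
HSP90AA1, chr14:102547385-102547414, minus strand, proximal PAS: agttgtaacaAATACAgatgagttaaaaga
HSP90AA1, chr14:102547079-102547108, minus strand, distal PAS: gtgttaAATACAgtcacttaattccttggc
HSPH1, chr13:31711101-31711130, minus strand, proximal PAS: tgATTAAAatctttaagcatttgttcctgc
HSPH1, chr13:31710766-31710795, minus strand, ending 4 bases before the distal PAS: aaAATAAAgttcatcttatggtgtcatttc
The proximal PAS of HSPA1B thus had a variant signal, AATGAA, and its distal PAS, 124 bases on, the canonical AATAAA. The HSPH1 PASs were 339 bases apart, with ATTAAA at the proximal and AATAAA at the distal site. HSP90AA1 had the variant AATACA at both of its PASs, 306 bases apart.

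HSPA1A and HSPA1B encode nearly the same inducible HSP70 protein from neighbouring genes on chromosome 6 (31783320 to 31785723 and 31795515 to 31798031). Their 3′ ends differ. The last 70 bases before each of their PASs had 0 other places in the genome with at least 60 bases aligned at 90% identity or more, so that reads at these ends can be assigned to the 1 gene or the other. HSPH1 likewise had 0 such places at either PAS.

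HSPA1A stood at 967 RPM in siCtrl, 667 in siStarPAP, 1726 in siPAPa, 987 in siPAPg and 901 in siPAPag, and at 615 in siCtrl and 518 in siStarPAP of batch 2. The siPAPa library was the highest of the 7 and the siStarPAP library of batch 2 the lowest. HSPA1B was scarcer, at 84.7 RPM in siCtrl, 71.5 in siStarPAP, 183 in siPAPa, 104 in siPAPg and 111 in siPAPag. In batch 2 it stood at 144 RPM in siCtrl and 246 in siStarPAP, above every library of batch 1 but siPAPa for the former and above all 5 for the latter. The share of HSPA1B in the reads of the pair was 8.06% (7.58 to 8.56) in siCtrl and between 9.55% and 11.0% in the KD libraries of batch 1. In batch 2 it was 19.0% (17.8 to 20.3) in siCtrl and 32.2% (30.6 to 33.8) in siStarPAP. In each KD library the share was thus above that of the siCtrl of its own batch, and the intervals did not overlap; within-library shares do not depend on scaling.

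HSP90AA1, the gene of the inducible HSP90α, was the other abundant member in batch 1, with 1005 RPM in siCtrl, 1358 in siStarPAP, 1187 in siPAPa, 1333 in siPAPg and 817 in siPAPag. Batch 2 gave 154 RPM in siCtrl and 167 in siStarPAP, below every library of batch 1. HSPH1, the HSP110 that recharges HSP70, stood at 159 RPM in siCtrl, 110 in siStarPAP, 134 in siPAPa, 99.97 in siPAPg and 95.9 in siPAPag, and at 68.5 and 56.2 RPM in siCtrl and siStarPAP of batch 2. It was lower in each KD library than in the siCtrl of its batch. DNAJB1, the HSP40 that delivers substrates to inducible HSP70, stood at 42.3 RPM in siCtrl, 44.6 in siStarPAP, 46.4 in siPAPa, 46.9 in siPAPg and 35.4 in siPAPag. In batch 2 it had 13.5 RPM in siCtrl (68 reads) and 5.41 in siStarPAP (23 reads), both below all libraries of batch 1.

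The constitutive cytosolic chaperones gave few reads. HSP90AB1, the gene of HSP90β, lay between 10.8 RPM (siPAPag) and 17.4 RPM (siPAPg), with 12.4 in siCtrl of batch 1 and 12.3 in that of batch 2. HSP90AA1 therefore took 98.8% of the reads of both HSP90 genes in siCtrl and between 98.7% and 99.0% in the KD libraries of batch 1, against 92.6% and 92.8% in siCtrl and siStarPAP of batch 2. The 5 inducible genes took between 99.3% and 99.5% of the reads of the cytosolic members with a sense row in batch 1 and 98.8% and 98.7% in batch 2. As HSPA8 had no sense row, HSP90AB1 was the only constitutive gene in this share. The interval of each KD library overlapped that of the siCtrl of its batch, which ran from 99.4% to 99.5% in batch 1 and from 98.4% to 99.1% in batch 2. The planned share of HSPA1A and HSPA1B against HSPA8 could not be formed, as HSPA8 had no sense row.

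These shares stand beside the number of copies of each 3′ end, because the authors kept uniquely mapped reads only. The annotated end of HSPA8 (chr11:122928197, minus strand, with AATAAA) had 11 other places in the genome that matched its last 70 bases at 90% identity or more, the best at 98.6%. The most-read end of HSPD1 had 12 such places and that of HSPE1 10, with 4 and 5 of them at 95% or more. The 2 most-read ends of HSP90AB1 had 2 and 3 other places, those of HSP90AA1 9 (proximal) and 1 (distal), and HSPA5 had 2, of which 1 was identical over the aligned bases. The part of these copies in the levels was not tested. The order of levels between the inducible and the constitutive genes is therefore an order of uniquely mapped reads.

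**Figure D1:**
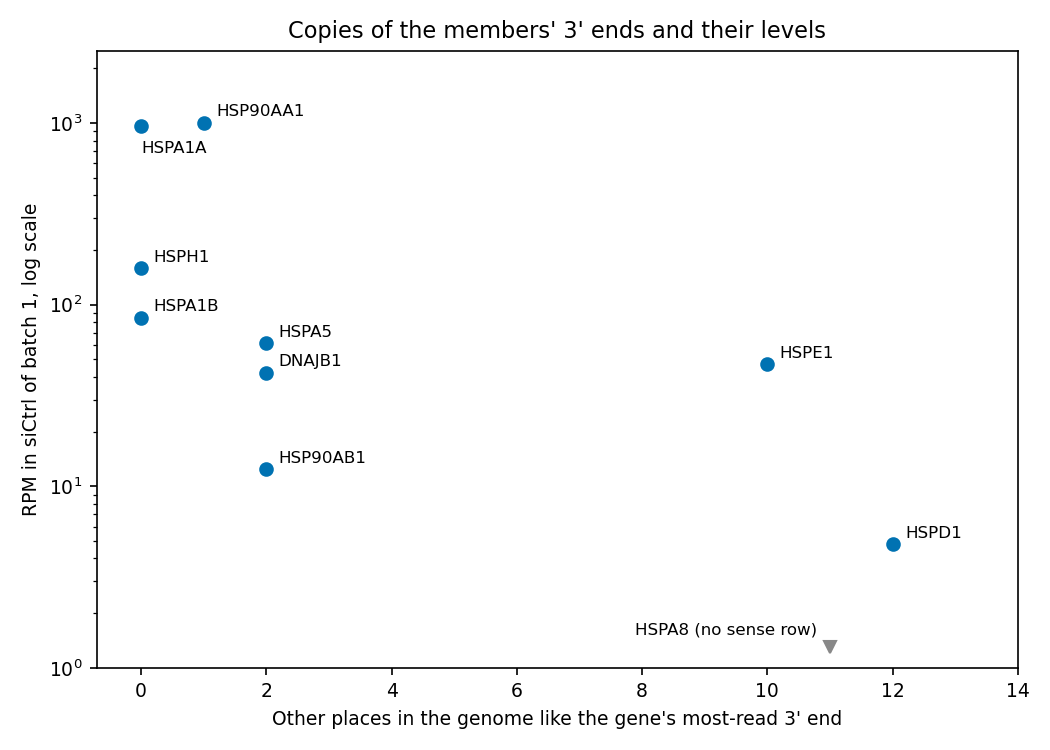
Each point is a gene, placed by the number of other places in the genome that match the last 70 bases of its most-read 3′ end (at least 60 bases aligned, 90% identity or more; x axis) and by its RPM in siCtrl of batch 1 (y axis, log scale). HSPA1A, HSPA1B and HSPH1 have 0 such places, HSPD1 has 12 and 4.81 RPM, and HSPA8, drawn as a triangle at the foot of the plot because it has no sense row and no RPM, has 11 at its annotated end.

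HSPA5 (BiP), the HSP70 of the ER and a target of the unfolded protein response, stood at 61.1 RPM in siCtrl, 66.6 in siStarPAP, 99.98 in siPAPa, 92.7 in siPAPg and 83.7 in siPAPag. In batch 2 it had 115 RPM in siCtrl and 99.8 in siStarPAP. The mitochondrial chaperonin HSPD1 (HSP60) had 2.87 to 4.81 RPM in batch 1, on 54 to 116 reads, and 23.97 and 43.5 RPM in siCtrl and siStarPAP of batch 2. Its partner HSPE1 (HSP10), which lies beside it on chromosome 2 in the opposite direction, had 46.8 RPM in siCtrl, 38.6 in siStarPAP, 77.9 in siPAPa, 43.5 in siPAPg and 46.1 in siPAPag. In batch 2 HSPE1 had 0.990 RPM (5 reads) and 2.35 RPM (10 reads), because its main PAS at chr2:198368107, which held all 535 reads of siCtrl in the table of batch 1, had no row in the table of batch 2. Without counts at that PAS, the lower HSPE1 values of batch 2 cannot be read as a lower level of its RNA, while HSPD1 was higher there. The HSPE1 ends are also listed under a read-through gene that joins HSPE1 to its neighbour, so the counts cannot be told apart from those of that RNA.

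**Figure D2:**
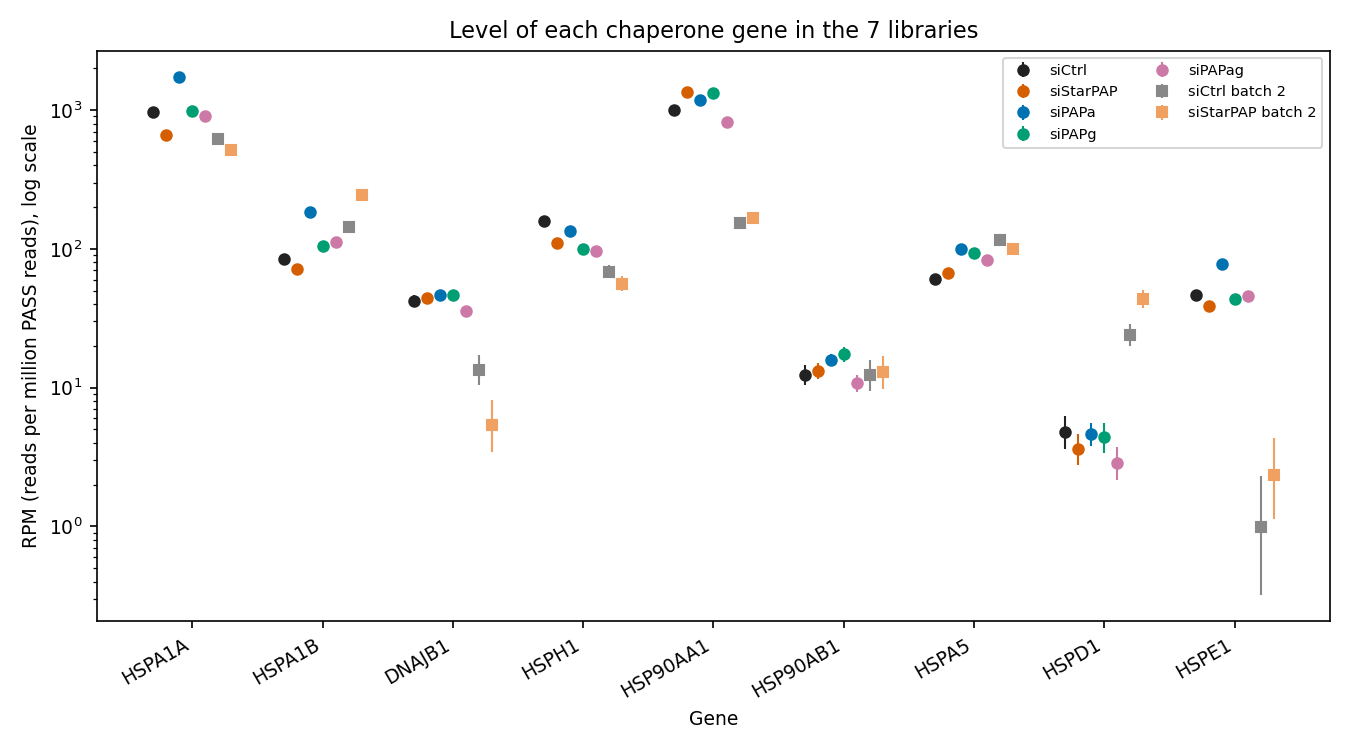
RPM (y axis, log scale) of the 9 genes with sense rows (x axis) in the 7 libraries, circles for batch 1 and squares for batch 2, with 95% Poisson intervals of each count. HSPA1A and HSP90AA1 are highest in batch 1. HSPA1A, HSP90AA1, HSPH1, DNAJB1 and HSPE1 are lower and HSPD1 higher in both libraries of batch 2 than in all of batch 1. The HSPE1 values of batch 2 lack its main PAS.

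For the KD comparisons each library was set against the siCtrl of its own batch, and a gene counted as regulated past 2-fold. The 2-fold rule sets 1 library against another and carries no test, and siCtrl of batch 1 is shared by 4 comparisons. On the RPM scale the median gene fell by 0.45 (log2) in siStarPAP, 0.26 in siPAPa, 0.33 in siPAPg, 0.38 in siPAPag and 0.16 in siStarPAP of batch 2, so the log2 ratios below are also given relative to that median. Across all genes with more than 50 reads in both libraries together, 26.2% fell and 4.44% rose past 2-fold in siStarPAP, 22.1% and 8.5% in siPAPa, 20.7% and 5.67% in siPAPg, 26.5% and 6.98% in siPAPag, and 11.7% and 3.55% in siStarPAP of batch 2. Scaling by TMM factors, which centre most genes near 0, turned 2637 genes down and 448 up in siStarPAP into 1295 and 1173. The split went from 2388 and 919 to 1492 and 1617 in siPAPa, from 2105 and 576 to 1118 and 1151 in siPAPg, from 2656 and 700 to 1502 and 1478 in siPAPag, and from 831 and 253 to 589 and 426 in batch 2.

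Few of the chaperone genes passed 2-fold. In siStarPAP of batch 1, siPAPg and siPAPag it was 0 of 9 in either direction, in siPAPa 1 of 9 rose and 0 fell, and in siStarPAP of batch 2 1 of 8 fell and 0 rose. The gene that rose was HSPA1B in siPAPa, 2.16-fold (log2 1.11, 1.01 to 1.21), and HSPA1A (log2 0.84), HSPE1 (0.73) and HSPA5 (0.71) came next with ratios under 2-fold. The gene that fell was DNAJB1 in siStarPAP of batch 2 (log2 -1.32, -2.07 to -0.61). The members lay above the all-gene median in 7 of 9 cases in siStarPAP, 9 of 9 in siPAPa, 8 of 9 in siPAPg, 8 of 9 in siPAPag and 4 of 8 in siStarPAP of batch 2, where the same share over all genes is 50.0% by construction. Their median log2 ratios were -0.24, 0.36, 0.15, -0.12 and -0.07 in that order. Under TMM scaling HSPA1A, HSPA1B, HSPE1 and HSPA5 all passed 2-fold in siPAPa, at 1.17, 1.45, 1.07 and 1.05 on the log2 scale.

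HSPA1B kept its place above the median of all genes in each comparison. Relative to that median it stood at 0.20 in siStarPAP, 1.37 in siPAPa, 0.63 in siPAPg, 0.78 in siPAPag and 0.93 in siStarPAP of batch 2. On the RPM scale itself HSPA1B was lower in siStarPAP of batch 1 (log2 -0.24, -0.37 to -0.12), a direction that TMM scaling turned to 0.23. HSPA1A was at -0.09, 1.09, 0.36, 0.27 and -0.08 relative to the median, close to the typical gene in both siStarPAP libraries. HSPH1 was the member most often below the other genes, at -0.09, 0.01, -0.34, -0.35 and -0.12. On the RPM scale its log2 ratio was negative in all 5 comparisons, from -0.25 (siPAPa) to -0.73 (siPAPag), and the ratio in siPAPa turned to 0.09 with TMM scaling. HSPA1A in siPAPag, at -0.12 on the RPM scale, turned to 0.31 with TMM scaling, and DNAJB1 there from -0.25 to 0.18.

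HSP90AA1 was higher in siStarPAP (log2 0.43, 0.40 to 0.47), siPAPg (0.41, 0.38 to 0.44) and siPAPa (0.24, 0.21 to 0.27) and lower in siPAPag (-0.30, -0.33 to -0.26), a direction that TMM scaling turned to 0.13. In siStarPAP of batch 2 its ratio was 0.12 with an interval that held 0 (-0.03 to 0.27). HSPA5 was higher in siPAPa (0.71), siPAPg (0.60) and siPAPag (0.43) with intervals above 0, while in siStarPAP the interval held 0 (-0.01 to 0.26) and in siStarPAP of batch 2 the ratio was -0.21 (-0.39 to -0.02). HSP90AB1, on 55 to 400 reads, was higher in siPAPa (0.36, 0.08 to 0.65) and siPAPg (0.49, 0.19 to 0.79), and its intervals held 0 in the other comparisons, with a negative ratio in siPAPag (-0.26) that TMM scaling turned to 0.17. HSPD1 was higher in siStarPAP of batch 2 (0.86, 0.52 to 1.20), and its intervals held 0 in batch 1, where the negative ratios of siStarPAP, siPAPa and siPAPg became 0.070, 0.28 and 0.25 with TMM scaling. In siPAPag its ratio of 0.28 rests on 27 reads of siCtrl, since the table of the double KD lists other HSPD1 PASs than that of batch 1. HSPE1 was higher in siPAPa (0.73, 0.60 to 0.88), against -0.28, -0.11 and -0.10 in siStarPAP, siPAPg and siPAPag, which TMM scaling turned to 0.20, 0.27 and 0.33.

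**Figure D3:**
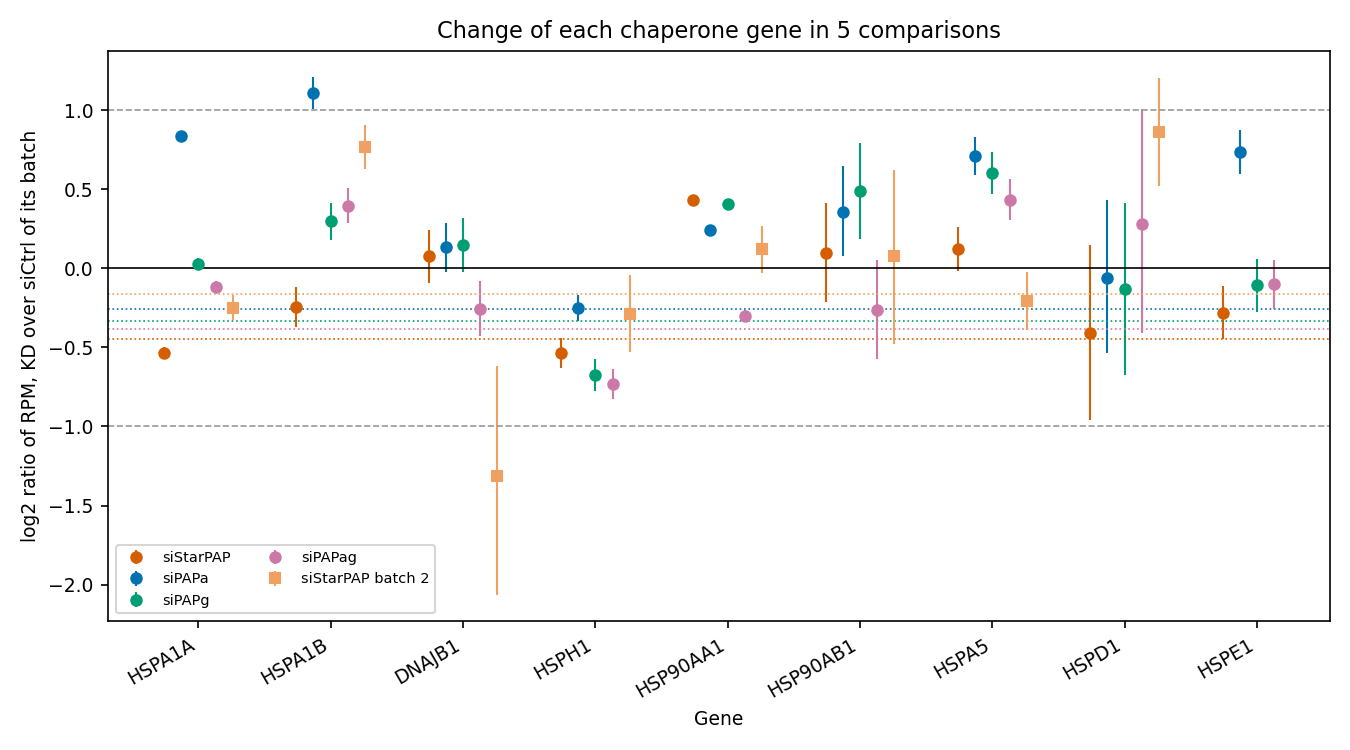
log2 ratio of RPM, KD over the siCtrl of its batch (y axis), for the 9 genes (x axis) in 5 comparisons, with 95% counting intervals; dotted lines are the all-gene medians in the colour of each comparison and dashed lines mark 2-fold. HSPA1B in siPAPa (1.11) and DNAJB1 in siStarPAP of batch 2 (-1.32) lie past 2-fold, and HSPH1 is below 0 throughout.

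The siStarPAP comparison, the only 1 made in both batches, was tested in a joint edgeR fit of its 4 libraries (quasi-likelihood, batch as a block, 1 residual degree of freedom, Benjamini-Hochberg adjustment over 11878 genes). Of all genes 1.08% fell and 1.23% rose at an adjusted p below 0.05. None of the 9 members did: edgeR gave 0 calls and 0 at an unadjusted p below 0.05, and DESeq2 gave 0 calls and 1 at an unadjusted p below 0.05. The largest fitted changes were 0.63 (SE 0.36, edgeR adjusted p = 0.426) for HSP90AA1 and 0.61 (SE 0.33, adjusted p = 0.406) for HSPA1B, each higher in siStarPAP of 2 of 2 batches relative to the median gene. A fit of all 7 libraries, in which the lone libraries are taken to vary as siCtrl and siStarPAP do and siPAPag is taken as batch 1, called 3.27% of genes in siStarPAP, 5.73% in siPAPa, 2.37% in siPAPg and 7.1% in siPAPag. Among the members it called HSPA1B in siPAPa (log2 fold change 1.67, SE 0.43, edgeR adjusted p = 0.00428) and no other gene in any KD, with HSPE1 (1.26, SE 0.46, adjusted p = 0.0829) and HSPA1A (1.23, SE 0.46, adjusted p = 0.0961) next in siPAPa.

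PAS use was compared as the share of a gene's reads at each of its PASs, which needs no depth. A gene counted as changed when a share moved by at least 10 percentage points, among genes with 2 or more PASs and at least 50 reads in each library. All-gene shares past this rule were 54.6% in siStarPAP, 56.5% in siPAPa, 49.9% in siPAPg, 50.8% in siPAPag and 29.8% in siStarPAP of batch 2. Of the members it was 2 of 6, 3 of 6, 2 of 6, 2 of 8 and 2 of 7 in that order, no more than over all genes. HSPA1B was changed in 4 of these 5 comparisons, HSP90AB1 in 4 and HSPD1 in 3, the last on 55 to 116 reads. HSP90AB1 only just met the rule in siPAPa (10.2 points), siPAPg (10.0) and siPAPag (10.3, with an interval of -0.05 to 20.5 that held 0). Its 32.7 points in batch 2 rest on 62 reads in siCtrl and 55 in siStarPAP. HSP90AA1, HSPH1 and DNAJB1, each with 2 PASs, moved by less than 10 points wherever they had the reads.

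HSPA1B was the only member that moved by 10 points in any comparison with at least 200 reads in each library. Its distal PAS held 19.7% (17.3 to 22.4) of the reads in siCtrl, 39.5% (36.7 to 42.4) in siStarPAP, 45.4% (43.9 to 46.8) in siPAPa, 29.1% (26.8 to 31.4) in siPAPg and 43.6% (41.5 to 45.8) in siPAPag. In batch 2 the distal share was 51.4% (47.7 to 55.1) in siCtrl and 72.1% (69.2 to 74.8) in siStarPAP. In each KD the distal share was above that of the siCtrl of its batch, by 19.8 points (15.9 to 23.6) in siStarPAP, 25.6 (22.6 to 28.5) in siPAPa, 9.32 (5.84 to 12.7) in siPAPg, 23.9 (20.5 to 27.1) in siPAPag and 20.7 (16.0 to 25.3) in siStarPAP of batch 2. The siCtrl libraries of the batches differed by 31.6 points, more than any KD from its own siCtrl.

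The shift came with more reads at the distal PAS in all comparisons. Its log2 ratio of RPM was 0.76 in siStarPAP, 2.31 (2.10 to 2.53) in siPAPa, 0.86 in siPAPg, 1.54 in siPAPag and 1.26 (1.08 to 1.44) in siStarPAP of batch 2, from 16.7 RPM in siCtrl of batch 1 and 74.1 in that of batch 2. The proximal PAS, with the AATGAA signal, gave -0.65, 0.56, 0.12, -0.11 and -0.03 in the same order, with intervals that held 0 in the last 3. The share change of HSPA1B was larger than that of 76.3% of 5270 genes in siStarPAP of batch 1, 83.4% in siPAPa, 47.1% in siPAPg, 82.5% in siPAPag and 91.9% of 3042 in siStarPAP of batch 2.

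Over both siStarPAP batches, 9.69% of 2270 genes had a PAS share that moved by at least 10 points the same way in each, and of the 5 members compared HSPA1B was among these and the other 4 were not. An edgeR test of PAS shares over both batches (diffSpliceDGE, batch as a block, 6432 PASs), added after the values were seen, called 0.0622% of PASs and 0 of 8 PASs of the 4 members tested, with 0 at an unadjusted p below 0.05. For the distal PAS of HSPA1B it gave a relative change of 0.52 (log2, edgeR adjusted p = 1.00). The difference at HSPA1B was thus past counting error in both batches and did not pass this test.

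**Figure D4:**
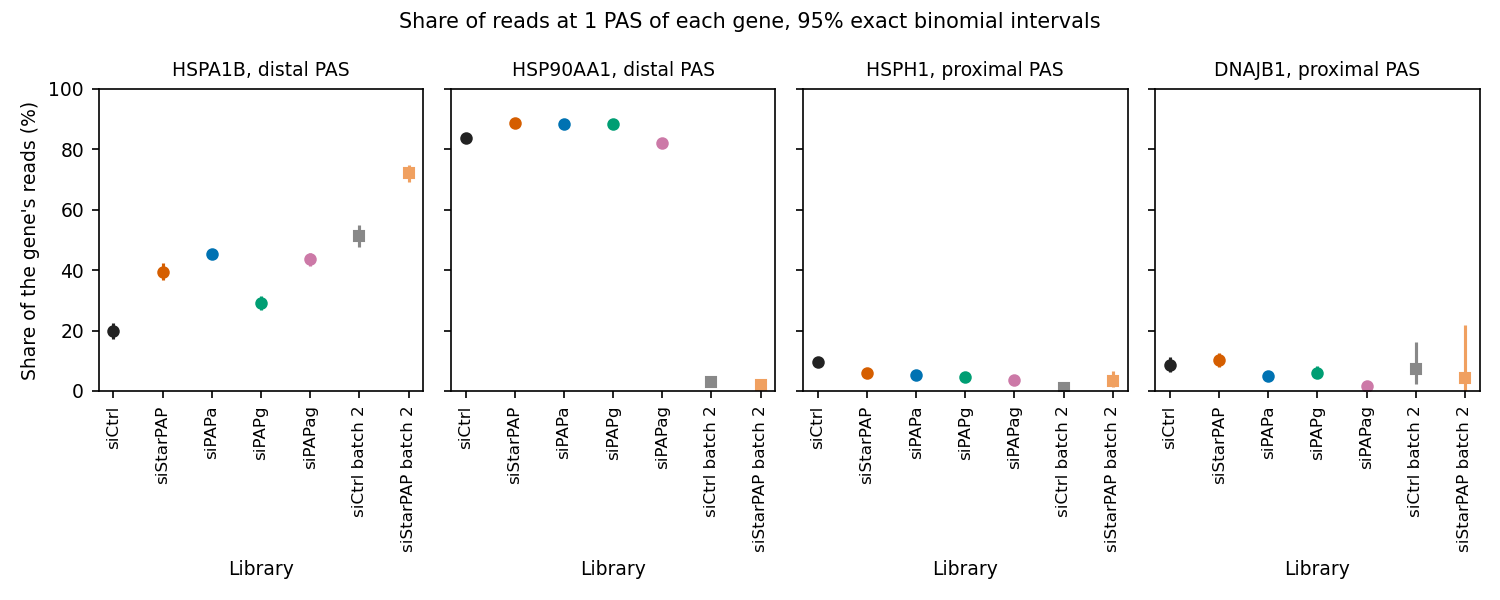
Share of the reads of a gene (y axis, %) at the distal PAS of HSPA1B and HSP90AA1 and the proximal PAS of HSPH1 and DNAJB1 in the 7 libraries (x axis), circles for batch 1 and squares for batch 2, with 95% Clopper-Pearson intervals. The HSPA1B share rises from 19.7% to between 29.1% and 45.4% in the KD libraries of batch 1 and from 51.4% to 72.1% in batch 2, and the HSP90AA1 share is 82.2% or more in batch 1 and 2.84% or less in batch 2.

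HSP90AA1 used its distal PAS for 83.9% of reads in siCtrl, 88.6% in siStarPAP, 88.4% in siPAPa, 88.3% in siPAPg and 82.2% in siPAPag. The share was higher by 4.46 to 4.73 points in the single KDs and fell by 1.68 points in the double KD, all past counting error and under the 10-point rule. In batch 2 the distal PAS held 2.84% of 775 reads in siCtrl and 1.97% of 709 in siStarPAP. The distal PAS went from 843 RPM in siCtrl of batch 1 to 4.36 in that of batch 2, while the proximal PAS stood at 162 and 149 RPM. The lower level of HSP90AA1 in batch 2 was thus a lower count at the distal PAS. Between the siCtrl libraries the largest share difference of a gene had a median of 22.4 points over 3749 genes, and the 81.0 points of HSP90AA1 exceeded 96.4% of genes. Protocol, batch and sequencing run cannot be told apart here.

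HSPH1 used its proximal PAS for 9.61% of reads in siCtrl, 5.83% in siStarPAP, 5.17% in siPAPa, 4.60% in siPAPg and 3.77% in siPAPag. All KD libraries of batch 1 were below siCtrl, with log2 ratios at this PAS of -1.26 (siStarPAP), -1.14 (siPAPa), -1.74 (siPAPg) and -2.08 (siPAPag), against -0.18 to -0.64 at the distal PAS. In batch 2 the share was 0.867% (3 of 346 reads) in siCtrl and 3.35% (8 of 239) in siStarPAP, the opposite direction on few reads. DNAJB1 used its proximal PAS, 1009 bases before the distal 1, for 8.49% of reads in siCtrl, 10.2% in siStarPAP, 5.07% in siPAPa, 6.05% in siPAPg and 1.502% (10 of 666 reads) in siPAPag. The double KD was the lowest and its interval (0.722 to 2.74) lay below all others of batch 1. HSPA1A ended almost wholly at 1 PAS, with 99.4% in siPAPag and 93.8% and 91.4% in siCtrl and siStarPAP of batch 2, the rest 45 bases upstream at a site with the AATACA signal.

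The other chaperone genes, 84 in 6 lists, were counted in the same way. Genes with no sense row in batch 2, such as UNC45A, entered the edgeR fit over both siStarPAP batches with 0 reads there. In that fit 1 of the 80 listed genes tested was called (1.25%, beside 2.31% of all genes). It was HSPB1, the gene of the small heat shock protein HSP27, which rose (log2 fold change 1.39, SE 0.36, edgeR adjusted p = 0.0438). It stood at 4.29 RPM in siCtrl and 10.9 in siStarPAP of batch 1, and at 49.9 and 86.8 RPM in batch 2. The other KD libraries were also above siCtrl of batch 1, with 8.61 RPM in siPAPa, 7.23 in siPAPg and 10.3 in siPAPag. That siCtrl value rests on 49 reads. Of the HSF1 targets and heat shock factors, 12 of 14 genes were tested, with 0 down and 1 up and a median of 0.05. The cytosolic HSP70 and HSP40 genes had 0 of 17 called and a median of -0.36, the HSP90 co-chaperones 0 of 10 and 0.37, TRiC and prefoldin 0 of 14 and 0.34, the ER genes 0 of 16 and 0.13, and the mitochondrial genes 0 of 11 and 0.27.

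Past 2-fold on the RPM scale most lists held more genes down than up in the KDs set against siCtrl of batch 1, as did all genes. In siPAPag 6 of 14 TRiC and prefoldin genes, subunits of the cytosolic chaperonin and its partner, fell and 0 rose, beside 26.5% down over all genes, with a median log2 ratio of -0.80 beside -0.38. With TMM scaling, added for the lists after the values were seen, 0 of the 14 were down and 1 up, and their median was -0.37 beside 0.05 for all genes. In the same library 7 of 16 ER genes fell and 1 rose, with a median of -0.21. With TMM scaling it was 6 down and 2 up, beside 15.0% and 14.7% over all genes. In siStarPAP 4 of 16 cytosolic HSP70 and HSP40 genes fell, near the 26.2% of all genes. With TMM scaling 2 fell and 1 rose, beside 12.8% and 11.6% over all genes. Among the 4 was DNAJB6, an HSP40 that keeps polyglutamine proteins soluble, from 31.4 to 6.47 RPM. DNAJB6 also stood at 6.58 RPM in siPAPa, 6.83 in siPAPg and 5.00 in siPAPag, all against the same siCtrl library. In batch 2 it had 92.1 RPM in siCtrl and 66.6 in siStarPAP. CHORDC1, an HSP90 co-chaperone, fell from 66.2 to 15.3 RPM in siStarPAP. It stood at 53.7 RPM in siPAPa, 35.4 in siPAPg and 36.4 in siPAPag, against the same siCtrl library. In batch 2 it had 11.7 RPM (59 reads) in siCtrl and 9.41 (40 reads) in siStarPAP. SIL1, the nucleotide exchange factor of BiP, fell from 38.8 to 7.33 RPM in siPAPa. PDIA3, a disulfide isomerase of the ER, fell from 141 to 29.1 RPM there. Neither was low in siPAPa alone. In siStarPAP, siPAPg and siPAPag SIL1 stood at 19.8, 14.9 and 6.76 RPM and PDIA3 at 52.4, 40.8 and 35.7. In siCtrl and siStarPAP of batch 2 SIL1 stood at 8.32 and 12.9 RPM and PDIA3 at 192 and 241.

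Among the genes that rose past 2-fold, DNAJB9, an ER-resident HSP40, went from 3.41 to 9.49 RPM in siStarPAP and 8.67 in siPAPag. That siCtrl value rests on 39 reads, and siPAPa and siPAPg stood at 5.30 and 5.20 RPM. In batch 2 DNAJB9 had 1.39 RPM (7 reads) in siCtrl and 0.941 (4 reads) in siStarPAP. SERPINH1, the collagen chaperone HSP47, went from 4 to 73 reads in siPAPa, or 0.350 to 2.91 RPM. It stood at 1.63 RPM in siStarPAP, 1.76 in siPAPg and 0.639 in siPAPag. In batch 2 SERPINH1 had 8.72 RPM in siCtrl and 5.41 in siStarPAP. DNAJC2, an HSP40 bound to ribosomes, rose in siPAPa (6.58 RPM), siPAPg (4.60) and siPAPag (6.12) from 2.01 RPM in siCtrl as listed in the table of batch 1 and 1.31 as in that of the double KD. It had 3.14 RPM in siStarPAP of batch 1, and 3.76 and 2.82 in siCtrl and siStarPAP of batch 2. UNC45A, a co-chaperone of HSP90 for myosin, went from 7.53 to 15.5 RPM in siPAPg. In batch 2 HSPBP1, a nucleotide exchange factor of HSP70, fell from 824 to 355 RPM. In batch 1 it stood at 2139 RPM in siCtrl and at 1284, 443, 693 and 795 in siStarPAP, siPAPa, siPAPg and siPAPag. TRAP1, the HSP90 of the mitochondria, stood at 48.7 and 92.5 RPM in siCtrl and siStarPAP of batch 2. DNAJC3, an ER co-chaperone, stood there at 7.13 and 3.77, and both changes were within 2-fold. In siCtrl and siStarPAP of batch 1 TRAP1 stood at 149 and 137 RPM and DNAJC3 at 20.3 and 15.1.

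HSF1 itself, named after its values were seen, stood at 1098 RPM in siCtrl of batch 1 and 542, 510, 483 and 472 in siStarPAP, siPAPa, siPAPg and siPAPag. In batch 2 it had 201 RPM in siCtrl and 124 in siStarPAP. HSF1 was thus lower in every KD library than in the siCtrl of its batch, and so was the median gene on the RPM scale. The all-gene median log2 ratio was -0.45 in siStarPAP, -0.26 in siPAPa, -0.33 in siPAPg and -0.38 in siPAPag. In siStarPAP of batch 2 it was -0.16. The KD libraries of batch 1 were all set against the same siCtrl library. The share of all genes that were lower in every KD library was not computed. In the edgeR fit over both siStarPAP batches the log2 fold change of HSF1 was -0.51 (SE 0.34, edgeR adjusted p = 0.521). This change did not pass the test.

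The genes whose log2 RPM followed HSPA1B most closely over the 7 libraries, of 3765 genes with at least 50 reads in each, were NT5DC2 (Pearson's r = 0.983), DOLPP1 (0.975) and SMARCE1 (0.968). These values describe 7 libraries of which 2 are of another protocol and 4 share 1 control. Within the chaperones, r with HSPA1B was -0.06 for its neighbour HSPA1A and -0.60 for HSPH1.

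The heat shock element bound by HSF1 is built of units of GAA and TTC that alternate with a gap of 2 bases. In the RefSeq promoters (GRCh38.p14, 250 bases before to 50 after a start), all 10 genes matched, with 16 promoters. GAANNTTC, which reads the same on both strands, stood in 8 of these 16 promoters, of 7 genes, against 6.77% of all 35116 promoters. An element with a further alternating unit on either strand, which overlaps GAANNTTC, stood in 4 of the 16, against 0.49% of all. The 4 genes with it were HSP90AA1, HSPA8, HSP90AB1 and HSPD1, so that constitutive as well as inducible members held it. The matches nearest the start of HSPA8 and of HSP90AA1 are printed as examples, 30 bases 5′ to 3′ on the strand of the gene, with the units in capitals.
HSPA8, chr11:123062170-123062199 of GRCh38.p14, minus strand: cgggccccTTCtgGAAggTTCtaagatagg
HSP90AA1, chr14:102087111-102087140 of GRCh38.p14, minus strand: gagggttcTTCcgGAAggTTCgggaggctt
The first base of the element was at -55 from the HSPA8 start and at -88 from the HSP90AA1 start.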

How the data were processed

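3′READS and 3′READS+ reads were aligned to hg19 by the authors with Bowtie2 and kept where they mapped uniquely (MAPQ above 10) and ended in at least 2 untemplated Ts. Ends within 24 nt were clustered, and the deposited values are raw counts of these reads per PAS of a RefSeq gene. Rows of upstream antisense transcripts were left out of the gene sums. 0 columns had no sample. For log2 ratios and PAS shares, siPAPag was compared with siCtrl as listed in the same table as siPAPag. That table and the table of batch 1 gave the same siCtrl count for 15 of 15 shared member PASs. RPM levels, read shares between genes and the fit of all 7 libraries used siCtrl sums over the PASs of batch 1. Such sums can differ, as HSPD1 had 55 siCtrl reads over these PASs and 27 over those listed with siPAPag. The part of this difference in the siPAPag results of that fit was not tested. RPM values use the PASS read totals that the study gives for each library, of which the sense rows hold 55.0% to 70.9%.

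Counts were summed per gene. Comparisons between 2 libraries compare those libraries and have no replicate check. siCtrl and siStarPAP of both batches were fitted with edgeR 4.0.16 in R 4.3.3 (TMM factors, default expression filter, replicate number as a block). The labels say that the number marks a batch, and the deviations of same-numbered libraries from their group means correlated at r = 0.858 across 11878 genes. Nothing says whether the replicates came from separate cultures, so p-values measure the spread between these libraries only. Alternatives were other scalings, filters, folds, a pseudocount of 1 read, antisense or last-exon rows, merged PASs, HSPA1A and HSPA1B summed, DESeq2 1.42.0, no block and each replicate left out. The fits were tested on simulated data. Intervals are exact Poisson or Clopper-Pearson at the 95% level. 3′ ends were compared with GRCh37 by blastn 2.17.0, and positions were annotated with GENCODE v44lift37. Promoter sequences are from RefSeq (GRCh38.p14), and their coordinates are not those of the tables.

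Named genes are the 10 chaperone genes, the knocked-down genes, for each comparison the 2 listed chaperone genes with the largest and the 2 with the smallest log2 ratio, any listed gene with an adjusted p below 0.05, and the 3 genes most like HSPA1B. HSF1 was added after its values were seen. The genes and lists were chosen with earlier results of these data known.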

Additional observations from a re-analysis of the deposited data

Results flagged for a closer look

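Relative to the all-gene median, DNAJB1 and HSPA5 had log2 ratios of opposite sign in siStarPAP of the 2 batches. DNAJB1 stood at 0.52 on the log2 scale in batch 1 and at -1.15 in batch 2, the latter on 68 reads in siCtrl and 23 in siStarPAP. HSPA5 stood at 0.57 in batch 1 and at -0.042 in batch 2, where its counting interval (-0.39 to -0.02 on the RPM scale) held the all-gene median of -0.16, so that it was level with the typical gene there. With 1 library of each condition per batch the difference between the batches was not tested.

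Rows outside the gene sums held reads on the strand opposite to HSPA8. Their end lies at chr11:122933938, the first base of the annotated gene, on the plus strand, and 2 further reads of siPAPag end at chr11:122934964. With both ends the level was 9.21 RPM in siPAPag against 6.56 in siCtrl, and 5.41 RPM in siStarPAP of batch 2 against 3.76 in siCtrl of that batch. In siStarPAP, siPAPa and siPAPg of batch 1 it was 3.69, 4.46 and 4.39 RPM, below siCtrl. The siStarPAP interval (2.82 to 4.73) lay below that of siCtrl (5.16 to 8.23). The intervals of siPAPa (3.68 to 5.37) and siPAPg (3.39 to 5.60) overlapped that of siCtrl. At the first position siPAPag had 9.10 RPM, and its interval (7.79 to 10.6) overlapped that of siCtrl (5.16 to 8.23), as did the intervals in batch 2 (3.43 to 8.12 and 2.27 to 5.88).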

How the results depend on the processing

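Depth and the single library per condition limit what can be said: HSPD1 and HSP90AB1 rest on 400 reads or fewer in each library, and the smallest PAS shares on 10 reads or fewer. The count of members past 2-fold up in siPAPa was 1. It became 4 with TMM factors, 4 with DESeq2 size factors, 4 at a fold of 1.5 and 0 with HSPA1A and HSPA1B counted as 1 gene. Over all genes 919 of 10808 rose, against 1617, 1533 and 1863 of 10808 and 918 of 10807 in that order. In siStarPAP of batch 2 the count up was 0. It became 1 with TMM factors, 1 with DESeq2 size factors, 2 at a fold of 1.5 and 1 with the filter at more than 10 reads. Over all genes 253 of 7127 rose, against 426, 447 and 810 of 7127 and 740 of 11097 in that order. A fold of 1.5 also gave 1 down and 1 up in siPAPg and 1 down in siPAPag. Over all genes this fold took 3834 down and 1240 up of 10163 in siPAPg, and 4164 down of 10022 in siPAPag. The count of members with a changed PAS share, at 20 points, was 0 of 6 in siStarPAP of batch 1, 1 of 6 in siPAPg and 1 of 8 in siPAPag. Over all genes the shares were 23.4%, 18.8% and 24.1%. At 5 points the member count was 4 of 6 in siPAPg and 5 of 8 in siPAPag, beside 75.8% and 71.4% of all genes. With at least 200 reads per library it was 1 of 4 in siStarPAP, 1 of 4 in siPAPa and 0 of 4 in siPAPg. It was 1 of 7 in siPAPag and 1 of 5 in siStarPAP of batch 2. Over all genes the shares were 36.0%, 44.2%, 36.2%, 35.6% and 12.9% in that order. Taking only the most-read PAS of each gene, the HSP90AA1 share was 99.1% in siCtrl, 99.2% in siStarPAP, 98.9% in siPAPa, 98.9% in siPAPg and 95.5% in siStarPAP of batch 2, and the inducible share was 99.6% in siCtrl, 99.5% in siStarPAP, 99.6% in siPAPa, 99.5% in siPAPg, 99.6% in siPAPag and 99.1% in siStarPAP of batch 2. With antisense rows included, which adds the reads opposite HSPA8, the inducible share was 99.2%, 99.3%, 99.4%, 99.2%, 99.0%, 98.4% and 98.2% in siCtrl, siStarPAP, siPAPa, siPAPg, siPAPag and the siCtrl and siStarPAP of batch 2. No alternative could be computed for the share of HSPA1A and HSPA1B against HSPA8.

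With no replicate block, 0 genes were called in the siStarPAP fit (54 at an unadjusted p below 0.05 in edgeR) and the log2 fold change of DNAJB1 went from -0.12 to 0.29. With the PASS read totals in place of TMM factors that of HSPA5 went from 0.31 to -0.040. In both cases the cause was not tested, and 0 of 9 members were called in all fits over both batches. Leaving out batch 1 or batch 2 in turn moved DNAJB1 between -1.14 and 0.56, HSPA1B between 0.23 and 0.95, HSPA5 between -0.03 and 0.60, HSPD1 between 0.070 and 1.04 and HSPE1 between 0.20 and 1.43. The HSPE1 value of 1.43, from batch 2 alone, rests on 5 reads in siCtrl and 10 in siStarPAP. The test of PAS shares gave 0 member PASs with no replicate block and 0 with RLE size factors as well. Of the 44 log2 ratios of single members, 12 changed sign with TMM factors, 12 with DESeq2 size factors, 7 with the totals of the tables and 0 with 1 read added. HSPD1 in siStarPAP of batch 2 passed 2-fold with TMM factors (1.04).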
